A study of Homo sapiens with 6 samples.

Results

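The genes described here were 53 genes of DNA replication and of the passage from G1 into S phase, chosen by symbol from the gene count table by their known roles. Of the 40173 genes in the table, 52 of the 53 had a row and all 52 passed the filter on low counts, which left 15250 genes for testing, while PRIM2 was not analysed here. The libraries were made from total RNA of cells labelled A549, a human lung adenocarcinoma cell line, about a day after transfection. All 6 libraries came from transfected cells with this label, which the markers below met only in part. The control group had received a negative control, the silenced group an siRNA against FAM83H-AS1, a long noncoding RNA, and each group had 3 libraries. The sources do not state whether the replicates were separate cultures, so that the p-values measured only the spread between these libraries, which may be technical. The siRNA lowers its target only in part and only for some days, so that the groups differed in the amount of FAM83H-AS1 and not in its presence.

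DNA replication begins in G1, when the origin recognition complex, CDC6 and CDT1 load the MCM helicase onto DNA. In S phase the helicase is activated by CDC45 and the GINS complex, and polymerases held by the sliding clamp PCNA copy both strands. Most of these genes are transcribed at the G1/S boundary by E2F factors, which are held back by the retinoblastoma family until cyclin-dependent kinases release them. The messengers of the replication-dependent histones are made at the same time through NPAT and are carried and translated with SLBP.

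Because E2F factors act through a short sequence near the start of their targets, the RefSeq promoters of the members (GRCh38.p14, from 250 bases before to 50 bases after the start) were searched on both strands for the letters TTTCCCGC, TTTCGCGC, TTTGCCGC and TTTGGCGC, called E2F-type sequences below. Matches of these 4 words may overlap each other, as they did in MCM6. A promoter was found for 44 of the 52 members, and MCM4, MCM5, GINS4, DSCC1, POLD3, RPA2, CCNE2 and E2F8 had none. An E2F-type sequence was present in 24 of the 44 (54.5%), compared with 3.31% of all 35116 promoters of the table and 6.66% of the 9513 genes tested that had one. Windows of 30 bases on the strand of the gene are shown for the 5 members that changed after silencing and held such a sequence, followed by 4 members that did not pass the test, to show the same letters in both. Capitals mark the E2F-type sequence or its reverse complement.
E2F2, chr1:23531257-23531286, minus strand: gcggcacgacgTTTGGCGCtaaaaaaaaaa
CDC25A, chr3:48188443-48188472, minus strand: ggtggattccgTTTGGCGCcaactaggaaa
DTL, chr1:212035729-212035758, plus strand: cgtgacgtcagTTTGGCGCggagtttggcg
E2F1, chr20:33686387-33686416, minus strand: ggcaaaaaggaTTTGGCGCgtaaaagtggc
LIG1, chr19:48170440-48170469, minus strand: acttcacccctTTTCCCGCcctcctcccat
MCM7, chr7:100101388-100101417, minus strand: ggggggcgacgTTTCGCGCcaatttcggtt
MCM6, chr2:135876515-135876544, minus strand: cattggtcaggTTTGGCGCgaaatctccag
PCNA, chr20:5126663-5126692, minus strand: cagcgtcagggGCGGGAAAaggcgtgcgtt
TYMS, chr18:657603-657632, plus strand: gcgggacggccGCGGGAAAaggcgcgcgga

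Total counts per library ranged from 9738291 to 17742643, and the members had between 88 and 14073 counts in a library. The targeted RNA, FAM83H-AS1, had 141, 185 and 292 counts in the controls and 47, 48 and 75 in the silenced libraries. Its level was 15.9 ± 1.39 CPM (counts scaled to a common TMM-normalised library size, SD, n = 3) in the controls and 4.87 ± 0.617 CPM (SD, n = 3) after silencing, which left 30.6% (log2 fold change -1.70, SE 0.15, edgeR's quasi-likelihood test, Benjamini-Hochberg adjusted p = 8e-05). In control 3, the library with the most counts, the ribosomal pseudogene RNA5-8SP6 took 3.22% of them, whereas its share elsewhere was 0.241% to 0.448%. Of the 7 markers fixed for A549 cells, KRT8 and KRT18 were high, at 1594 to 2081 and 951 to 1363 CPM. The others were near 0, since KRT19, EPCAM, CDH1 and AKR1B10 reached at most 4.49 CPM and ALDH1A1 had 0 counts in 5 of the 6 libraries. The cell cycle inhibitor CDKN2A, whose locus the A549 line is known to lack, had 521 to 955 counts in every library (a check chosen after its values were seen). KRT7 and MTAP, chosen in the same way, had 909 to 1501 CPM and 32.6 to 39.2 CPM. The label was thus met by KRT8 and KRT18 but not by the other fixed markers or by CDKN2A. KRT7, a keratin as they are, was also high, and no other name is given to these cells. The summed level of the 7 markers was 2928 to 3451 CPM in the controls and 2588 to 2626 CPM after silencing, and its part in the results was not tested. Of 9 markers of blood, fibroblast, endothelial and basal cells, COL1A1 was at 25.7 to 37.3 CPM and the others were at or below 2.08 CPM.

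After the silencing of FAM83H-AS1, the replication genes as a group stayed close to their control levels, and the genes that rose were 3 regulators of S phase entry, DTL, 2 genes of nucleotide supply and 1 gene of the replication machinery. Among the 52 members, 7 were higher at an adjusted p under 0.05 (13.5%, compared with 8.75% of all genes tested) and 1 was lower (1.92%, compared with 8.27%). In either direction these were 15.4% of the members, close to the 17.0% of all genes. The genes that rose were E2F2, CDC25A, DTL, RRM1, E2F1, MCM10 and TK1, and the gene that fell was LIG1. None of the 52 changed more than 2-fold (edgeR and DESeq2, at adjusted or unadjusted p), compared with 2.14% of all genes. In bulk RNA, a change in the share of cells in S phase and a change in the amount of RNA per cell cannot be told apart.

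The median log2 fold change of the members was 0.04, with a range from -0.30 to 0.68, compared with -0.00 over all genes. A value within 0.2 of 0 was seen for 38 of the 52 members (73.1%) and for 50.1% of all genes. The 95% interval of the fold change lay between 1/1.5 and 1.5 for 50 members, and the exceptions were E2F2 and CDC25A. Every silenced library was above every control library for 14 members (26.9%, compared with 19.1% of all genes), and every silenced library was below for 5 members (9.62%, compared with 17.5%). For any one member, exact permutation of the 6 libraries gives p = 0.1 at the lowest, and the calls therefore depend on pooling of the variance over genes by edgeR.

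**Figure D1:**
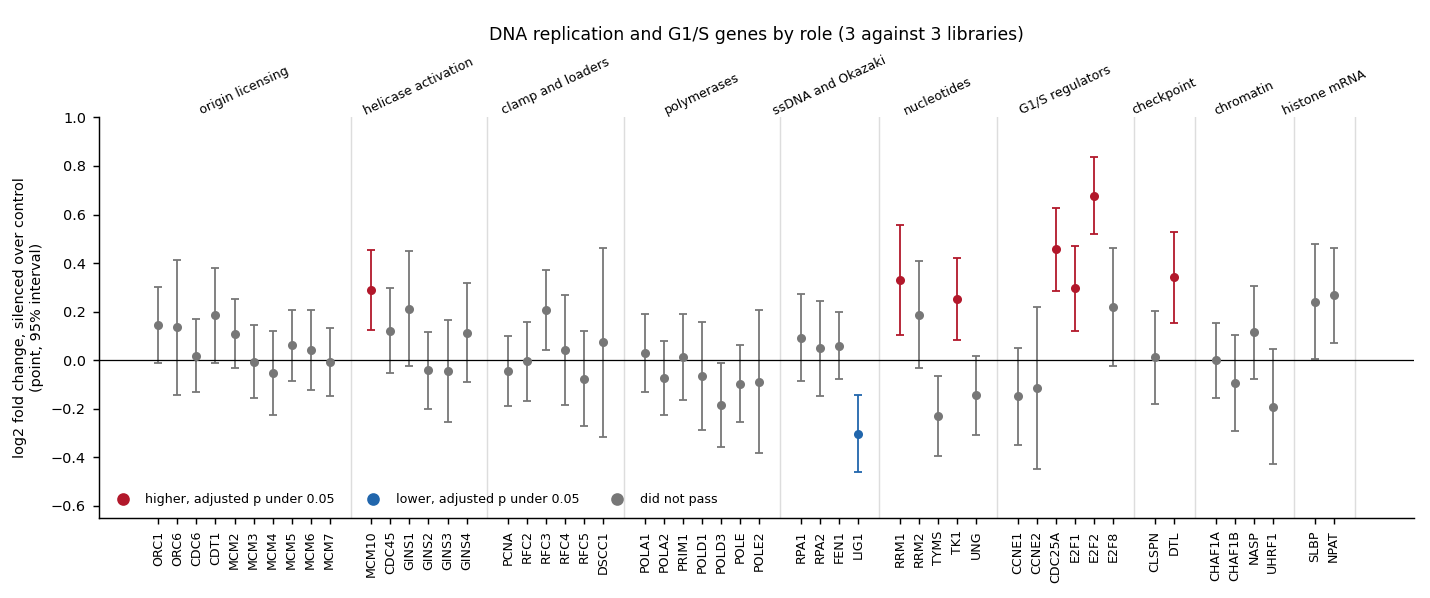
Log2 fold change of each of the 52 members, silenced over control, with its 95% interval from the edgeR fit (3 against 3 libraries), grouped by role along the horizontal axis. The 7 higher members are in red and LIG1 in blue, and the 10 origin licensing genes lie between -0.05 and 0.18.

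The G1/S regulators held the 2 largest changes, those of E2F2 and CDC25A. Of the 6 genes of this role, E2F2, CDC25A and E2F1 rose, and CCNE1, CCNE2 and E2F8 did not pass the test, with log2 fold changes of -0.15, -0.11 and 0.22. The summed level of the 6 genes was 272 to 295 CPM in the controls and 346 to 364 CPM after silencing.

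E2F2, an activator of the E2F family (GRCh38 chromosome 1, 23506430 to 23531220, minus strand), had 41.1, 42.1 and 43.8 CPM in the controls and 69.0, 67.9 and 66.7 CPM after silencing. Every silenced library was above every control, with little spread within either group. The control mean was 42.4 ± 1.36 CPM and the silenced mean 67.9 ± 1.18 CPM (SD, n = 3 in both), a fold of 1.60 (95% interval 1.43 to 1.78, log2 0.68, SE 0.07, edgeR adjusted p = 0.00025). No other member changed by as much.

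CDC25A, the phosphatase that activates CDK2 at S phase entry (chromosome 3, 48157146 to 48188402, minus strand), had 67.2, 69.0 and 71.5 CPM in the controls and 92.5, 102.6 and 90.2 CPM after silencing. The groups did not overlap, and silenced 2 was the highest. The fold was 1.37 (95% interval 1.22 to 1.54, log2 0.46, SE 0.08, edgeR adjusted p = 0.0037). E2F2 and CDC25A were the members that passed the test whichever single library was left out.

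E2F1, the founding E2F activator and the most abundant regulator of this role in CPM (chromosome 20, 33675683 to 33686404, minus strand), had 115, 105 and 97.0 CPM in the controls and 133, 127 and 129 CPM after silencing. The highest control was below the lowest silenced library. The fold was 1.23 (95% interval 1.09 to 1.39, log2 0.30, SE 0.08, edgeR adjusted p = 0.0291). This call was lost without control 2 (adjusted p = 0.0803), control 3 (0.0934), silenced 1 (0.115) or silenced 3 (0.0644).

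DTL, the substrate receptor through which the CUL4 ubiquitin ligase removes CDT1 in S phase (chromosome 1, 212035553 to 212107400, plus strand), had 92.7, 105.5 and 110.3 CPM in the controls and 128, 139 and 124 CPM after silencing. The groups did not overlap, although the controls spread more widely than those of E2F2. The fold was 1.27 (95% interval 1.11 to 1.44, log2 0.34, SE 0.09, edgeR adjusted p = 0.0209). The adjusted p was 0.0616 without control 1, 0.0505 without control 2, 0.0677 without silenced 1 and 0.0617 without silenced 2. CLSPN, the adaptor that lets ATR activate CHEK1 and the other gene of the checkpoint role, had a log2 fold change of 0.01.

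**Figure D2:**
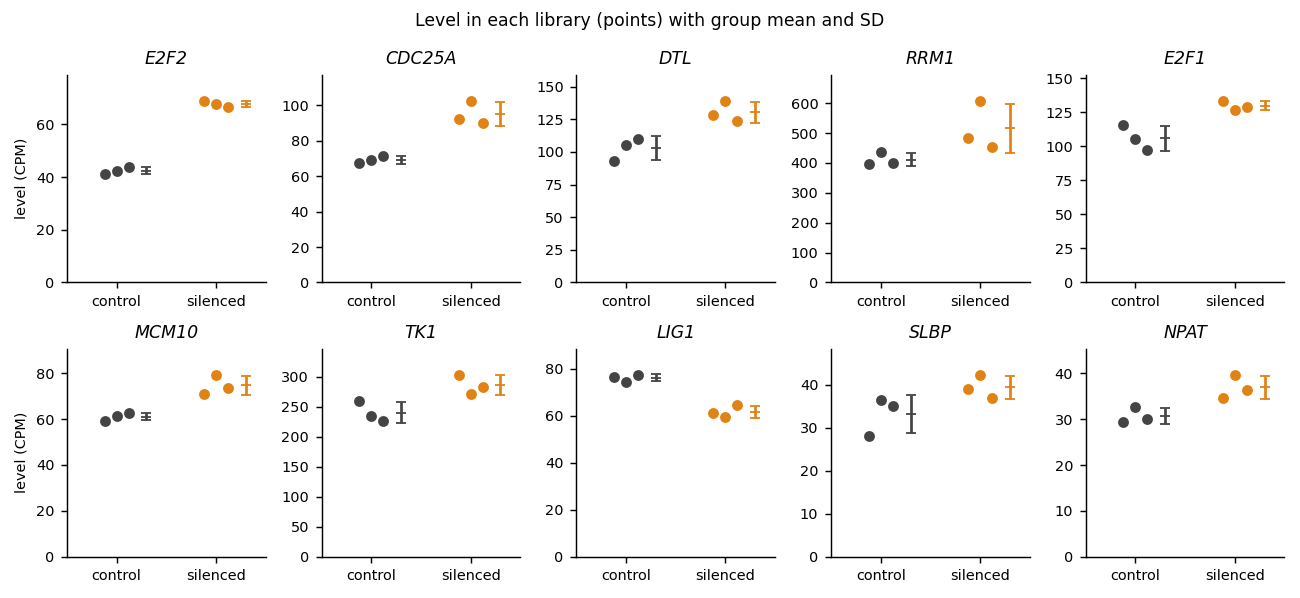
Level in CPM of the 8 changed members and of SLBP and NPAT in each library, with controls in grey, silenced libraries in orange, and the group mean and SD beside the points. The vertical axes start at 0, and the groups do not overlap in any of the 10 panels.

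In the role of nucleotide supply, RRM1 and TK1 rose. TYMS, RRM2 and UNG, which removes uracil from DNA, did not pass, with log2 fold changes of -0.23, 0.19 and -0.15. RRM1, the large subunit of ribonucleotide reductase (chromosome 11, 4094707 to 4138876, plus strand), had 395, 435 and 400.3 CPM in the controls and 485, 609 and 454 CPM after silencing. Silenced 2 stood above the others, and the lowest silenced library was only slightly above the highest control. The fold was 1.26 (95% interval 1.08 to 1.47, log2 0.33, SE 0.10, edgeR adjusted p = 0.0478). Without silenced 2 the log2 fold change was 0.19 and the adjusted p 0.133. The call was also lost without control 1 (0.124), control 2 (0.0756), control 3 (0.101) or silenced 1 (0.0843). RRM1-AS1 overlaps its exons on the other strand, and since the sources used here do not state whether strand was used in counting, reads of the pair may not be separable.

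TK1, thymidine kinase of the salvage pathway (chromosome 17, 78174075 to 78187233, minus strand), had 260, 234 and 227 CPM in the controls and 303, 271 and 284 CPM after silencing. The groups did not overlap. The fold was 1.19 (95% interval 1.06 to 1.34, log2 0.25, SE 0.08, edgeR adjusted p = 0.0441). The adjusted p was 0.127 without control 2, 0.132 without control 3, 0.18 without silenced 1 and 0.0883 without silenced 3. TYMS, which makes thymidylate de novo, was at 233 to 238 CPM in the controls and 183 to 212 CPM after silencing, and its log2 fold change of -0.23 had an adjusted p of 0.057 by edgeR. TYMS passed as lower in 4 other settings, among them DESeq2, edgeR on all genes with a count and edgeR on rows of the type mRNA only. TYMS has 2 annotated pseudogenes and overlaps ENOSF1 and TYMSOS on the other strand.

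In the helicase activation role, MCM10 rose and the other 5 genes did not pass. MCM10, which is needed for the loaded helicase to start unwinding (chromosome 10, 13161554 to 13211104, plus strand), had 59.3, 61.3 and 62.5 CPM in the controls and 71.0, 79.2 and 73.6 CPM after silencing. Every silenced library was above every control. The fold was 1.22 (95% interval 1.09 to 1.37, log2 0.29, SE 0.08, edgeR adjusted p = 0.0248). The call was lost when any library but control 3 was left out, with adjusted p between 0.0537 (without silenced 1) and 0.0696 (without control 1), and with 0.061 without control 2, 0.0679 without silenced 2 and 0.0561 without silenced 3. GINS2, the gene of the role with the highest mean CPM in the controls, had 68.0, 71.8 and 68.9 CPM in the controls and 67.5, 65.5 and 69.6 CPM after silencing. The groups overlapped (log2 fold change -0.04, 95% interval of the fold 0.871 to 1.08). CDC45, GINS1, GINS3 and GINS4 had log2 fold changes from -0.04 to 0.21.

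The genes of origin licensing, which load the helicase, stayed near their control levels. None of the 10 passed the test with edgeR, DESeq2 or an unadjusted p under 0.05, and their median log2 fold change was 0.05, with a range from -0.05 for MCM4 to 0.18 for CDT1. MCM2, the most abundant of them in CPM, had 851, 860.2 and 832 CPM in the controls and 902, 954 and 888 CPM after silencing. The silenced libraries were all above the controls, by a fold of 1.08 (95% interval 0.977 to 1.19, edgeR adjusted p = 0.277). Over the 6 subunits of the helicase ring, MCM2 to MCM7, the log2 fold changes were between -0.05 and 0.11, and the bounds of their 95% intervals reached no lower than 0.854-fold and no higher than 1.19-fold.

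The sliding clamp and its loaders had 3 of 6 genes above 0 and a median of 0.02, and none passed (edgeR or DESeq2, with RFC3 at an unadjusted p of 0.0182). PCNA, the clamp itself, had 147, 146 and 144 CPM in the controls and 139, 144 and 141 CPM after silencing, so that the groups overlapped at 144 CPM (log2 fold change -0.05, 95% interval of the fold 0.877 to 1.07). RFC3, a subunit of the clamp loader, had a log2 fold change of 0.21 with an adjusted p of 0.0812. PCNA has 3 annotated pseudogenes whose reads may be shared with it.

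Of the 7 polymerase and primase genes measured, 2 were above 0 and the median log2 fold change was -0.07. None passed (edgeR or DESeq2), and POLD3, a subunit of polymerase delta, had the smallest unadjusted p at 0.0365 with a log2 fold change of -0.19. POLE, the catalytic subunit of the leading strand polymerase, had 267, 255 and 290.1 CPM in the controls and 257, 258 and 244 CPM after silencing. These ranges overlapped (log2 fold change -0.10, 95% interval of the fold 0.838 to 1.04).

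LIG1 was the 1 member that fell. It is the ligase that joins Okazaki fragments on the lagging strand (chromosome 19, 48115445 to 48170603, minus strand). LIG1 had 76.5, 74.4 and 77.3 CPM in the controls and 60.9, 59.6 and 64.4 CPM after silencing. No silenced library reached the lowest control, and both groups were tight. The fold was 0.811 (95% interval 0.726 to 0.905, log2 -0.30, SE 0.07, edgeR adjusted p = 0.0169), which left 81.0% of the control mean. The adjusted p was 0.0739 without silenced 1 and below the threshold without any other library. The transcript AC011466.3 overlaps its exons on the other strand. FEN1, the flap nuclease that acts just before LIG1, had 277, 269.7 and 271 CPM in the controls and 287, 282 and 284 CPM after silencing. It was slightly higher in every silenced library, by a fold of 1.04 (95% interval 0.948 to 1.15, adjusted p = 0.545 by edgeR). RPA1 and RPA2, which coat single-stranded DNA, had log2 fold changes of 0.09 and 0.05.

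None of the 4 genes of chromatin assembly and maintenance passed (edgeR, DESeq2 or an unadjusted p under 0.05). NASP, a histone chaperone, had 128, 144 and 140 CPM in the controls and 143, 166 and 137 CPM after silencing, with overlapping groups (log2 fold change 0.11, 95% interval of the fold 0.947 to 1.24). CHAF1A and CHAF1B, the large subunits of the CAF-1 chaperone, had log2 fold changes of -0.00 and -0.10, and UHRF1, which guides DNA methylation to the new strand, had -0.19.

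Both histone mRNA factors were higher in every silenced library without passing the test. SLBP, which binds the stem-loop at the end of histone messengers, had 28.1, 36.5 and 35.1 CPM in the controls and 39.1, 42.4 and 36.9 CPM after silencing. Control 1 was well below the other controls, and the lowest silenced library was just above the highest control. The fold was 1.18 (log2 0.24, 95% interval on the log2 scale 0.0052 to 0.48, SE 0.11, edgeR adjusted p = 0.147). NPAT, the coactivator of histone gene transcription, had 29.3, 32.7 and 30.0 CPM in the controls and 34.7, 39.7 and 36.4 CPM after silencing, and the groups did not overlap. The fold was 1.20 (95% interval 1.05 to 1.38, log2 0.27, SE 0.09, edgeR adjusted p = 0.0636). NPAT overlaps ATM on the other strand. The histone genes, a list taken by symbol with its direction already known, are given as a sum because a filter on low counts keeps such genes mainly where they are high. Over all 89 genes with symbols from HIST1 to HIST4 in the table, unfiltered, the summed level was 246, 216 and 383 CPM in the controls and 121, 98.1 and 135 CPM after silencing. Control 3, the library with the most RNA5-8SP6, was the highest, and controls 1 and 2 were above every silenced library as well. Whether the 2 factors and the histone messengers were linked was not tested.

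**Figure D3:**
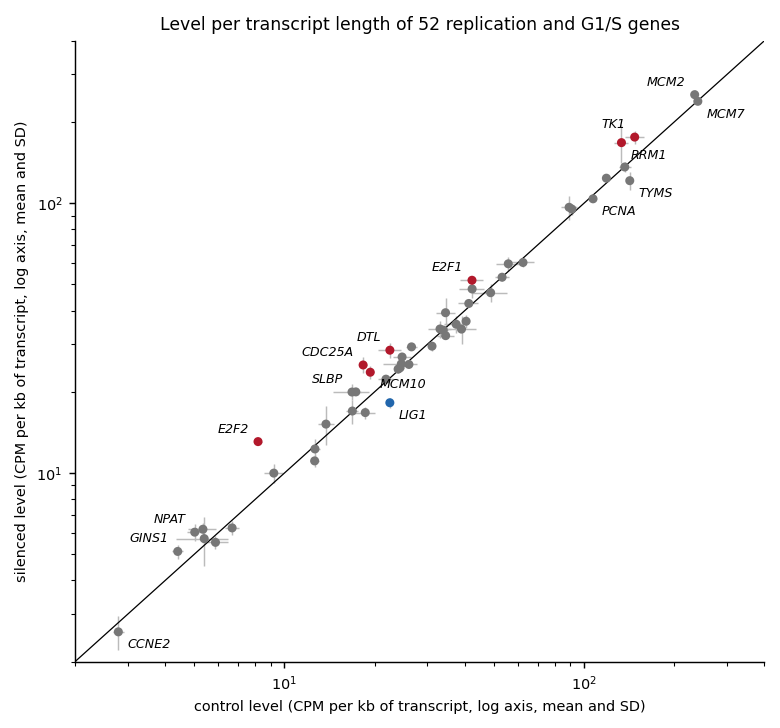
Mean level per kb of transcript in the silenced libraries against that in the controls, both on log axes, with SD over 3 libraries, for the 52 members, and with a diagonal of equal levels. Red and blue points are members that rose or fell at an adjusted p under 0.05, and E2F2 is the farthest from the diagonal while MCM2 and MCM7 are at the top of it.

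To compare levels between genes, CPM were divided by the length of the principal transcript in GENCODE 29. On this scale the members spanned from 2.79 CPM per kb for CCNE2 to 240 ± 4.56 CPM per kb for MCM7 (SD, n = 3 controls). MCM7, MCM2 (234 ± 3.97), TK1 (148 ± 10.5), TYMS (142 ± 1.74), MCM3 (137 ± 6.36), RRM1 (133 ± 7.10), FEN1 (119 ± 1.60) and PCNA (107 ± 1.22) were above 100 CPM per kb. Neighbours in this order from MCM7 to MCM2 and from TK1 to RRM1 differed by less than the sum of their SDs. The 6 subunits of the MCM ring, which assemble in equal number, ranged from 41.2 for MCM6 to 240 for MCM7. MCM7, MCM2 and FEN1 are among the 18 members whose exons overlap another transcript on the other strand. Their levels may include its reads. Below 10 CPM per kb were 9 members, among them the regulators E2F2 (8.16 ± 0.261), E2F8 (5.34) and CCNE2. E2F2 reached 13.1 ± 0.227 CPM per kb after silencing, which was still below E2F1 at 51.8 ± 1.37. The spread between replicates was small, with a median coefficient of variation over members of 5.30% in the controls and 5.53% after silencing.

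The libraries were also compared one by one. The summed level of the 52 members, on TMM-normalised library sizes, was 7068 to 7231 CPM in the controls and 7340 to 7743 CPM after silencing. These ranges did not overlap, but the median log2 ratio of the members to the control mean did, at -0.04 to 0.02 in the controls and 0.00, 0.09 and 0.01 in silenced 1, 2 and 3. Silenced 2 had the highest of the 3 silenced values for 33 of the 52 members. Without silenced 2, the median log2 fold change of the members was 0.00, and it was also 0.00 without control 1.

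The promoter sequences printed above were set beside the changes. Over the 24 members with an E2F-type sequence the median log2 fold change was 0.00, and they included 5 of the 8 changed members, namely E2F2, CDC25A, DTL, E2F1 and LIG1. The 20 without one had a median of 0.10 and included MCM10, RRM1 and TK1. E2F2, CDC25A, DTL and E2F1 shared the word TTTGGCGC on the strand of the gene, between 8 and 44 bases before the start, and so did CDC6, 8 bases after its start, with a log2 fold change of 0.02, and MCM6, with 0.04. CCAAT, the word bound by NF-Y, was in a promoter of 28 of the 44 members (63.6%). It was in 34.6% of all promoters and in a promoter of 43.3% of the genes tested that had one. The medians were 0.07 with and -0.02 without it. The share of all promoters is counted by promoter and the other shares by gene, and a gene may have several promoters. TTTGAA, part of the element of cell cycle genes that are active later, was in a promoter of 2 of the 44 members, namely RRM1 and UNG (4.55%). It was in 15.2% of all promoters and in a promoter of 13.3% of the genes tested that had one. A match is only a description of these letters.

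**Figure D4:**
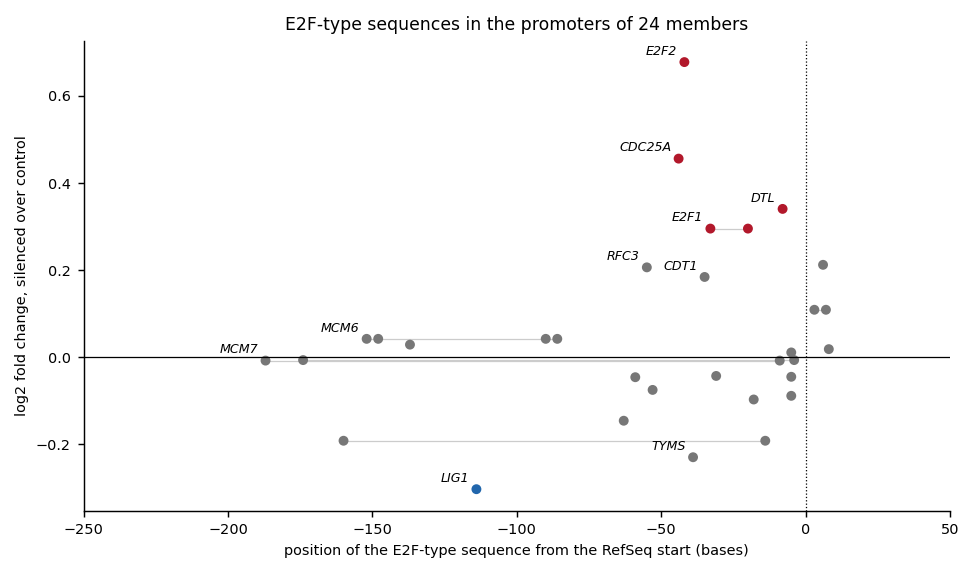
Log2 fold change of each of the 24 members with an E2F-type sequence against the position of that sequence from the RefSeq start, in bases, where a line joins several matches of a gene (for UHRF1, in promoters with different starts). The 4 higher members have a match between 44 and 8 bases before the start, as do members near 0.

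The 3′ ends were searched for the word CCAATAA, which was chosen with earlier results of these data known. It occurred in the 3′-UTR of 3 of the 52 members, CDC6, GINS4 and MCM6 (5.77%, compared with 12.7% of the 11556 genes tested with a 3′-UTR), and the median over these 3 was 0.04 on the log2 scale, as it was over the members without it. Over all genes tested, the median was -0.08 for the 1469 with the word and 0.01 for the others. The sites of CDC6 (chromosome 17) and MCM6 (chromosome 2) are shown with the word in capitals, at bases 1919 and 1098 of their 3′-UTRs.
CDC6, on GRCh38 transcripts of GENCODE 29: atcctgcCCAATAAggagcag
MCM6, likewise: gtttctcCCAATAAttatctc

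Other genes of the same pathways were taken from 4 lists. Among 42 other replication factors, 5 rose and 2 fell (11.9% and 4.76%, beside 8.75% and 8.27% of all genes), with a median log2 fold change of 0.07. Together these were 16.7%, close to the 17.0% of all genes. Among the 5 were WEE1, the kinase that restrains CDK1 and CDK2 (0.65, adjusted p = 0.002), POLD4, a small subunit of polymerase delta (0.51, 0.0049), EXO1, an exonuclease (0.40, 0.0215), and SAMHD1, which degrades deoxynucleotides (0.28, 0.0275). MCM8, a helicase of repair, fell by 0.47 on the log2 scale (adjusted p = 0.0108) and the checkpoint kinase CHEK1 fell by 0.40 (0.0145, both by edgeR). Without silenced 1, 4 of the 42 passed.

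Among 32 drivers and brakes of the G1/S transition, 2 rose and 2 fell (6.25% each, beside 8.75% and 8.27% of all genes), and the median was -0.06. The split was 2 higher and 5 lower when all genes with a count were kept. CDKN1A, the p21 inhibitor of cyclin-dependent kinases, had 74.5, 74.8 and 68.2 CPM in the controls and 120, 98.0 and 129 CPM after silencing. All silenced libraries were above the controls (log2 fold change 0.68, SE 0.10, edgeR adjusted p = 0.0018). MYBL2, an activator of cell cycle genes, also rose (0.41, adjusted p = 0.0025), while the repressor E2F7 (-0.50, 0.0035) and MYC (-0.29, 0.0334) fell. CDKN1B (-0.19, adjusted p = 0.244) and CDKN2A (-0.30, 0.0794) did not pass. CDKN1A, which holds back S phase entry, and E2F1 and E2F2, which promote it, were thus higher in the same libraries.

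A list of genes that act with SLBP and NPAT on histone messengers had 14 genes tested (CCNA2 and CDK2 are also in the list before). The 14 include MIIP, which is not known for this role. Of the 14, 2 rose and 3, MIIP among them, fell (14.3% and 21.4%), with a median of -0.03. Together these were 35.7%, compared with 17.0% of all genes. CASP8AP2, a partner of NPAT (0.30, adjusted p = 0.0453), and SYMPK, a scaffold of the cleavage complex (0.28, 0.0397), rose. LSM10 of the U7 particle (-0.44, 0.0269), CSTF2 of the cleavage complex (-0.27, 0.038) and MIIP (-0.38, 0.0185), known as an inhibitor of cell migration and not as a histone mRNA factor, fell. The number that passed was 0 without control 1 or silenced 2, 1 without control 2 or silenced 1, and 3 without control 3 or silenced 3. Among 43 genes of mitosis and cytokinesis, a later step of the cycle, 2 rose and 2 fell (9.30%, compared with 17.0% of all genes), with a median of 0.08. ANLN (0.48, adjusted p = 0.0033) and CENPF (0.34, 0.0077) were higher, and CDCA8 (-0.26, 0.0362) and PLK1 (-0.24, 0.0371) were lower by edgeR. The number was 2, namely 2 higher genes, without control 1, control 2, silenced 1 or silenced 2. The differences between these lists and the members were not tested.

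**Figure D5:**
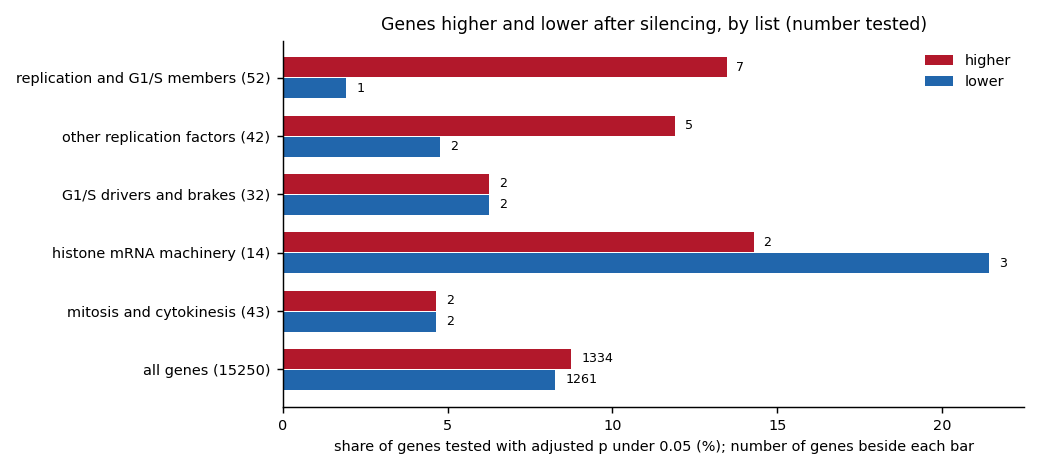
Share of genes higher (red) and lower (blue) after silencing at an adjusted p under 0.05, in percent, for the members, the 4 other lists and all genes tested, with the number of genes beside each bar. Among the 52 members, 13.5% were higher and 1.92% lower, and among all 15250 genes, 8.75% and 8.27%.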

How the data were processed

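RNA-Seq libraries of cells labelled A549 were run on the Ion Proton platform. Mapping and counting of reads per gene were done by the authors with MapSplice. What was deposited are whole counts without normalization. The build is GRCh37 per the submitters' processing notes, while the annotation, the use of strand and the treatment of reads with several matches are not given in the sources used here. Locations and transcript lengths were taken by symbol from GENCODE 29 on GRCh38, and promoters from RefSeq.

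Counts were analysed with edgeR 4.0.16 in R 4.3.3 (filterByExpr, TMM, quasi-likelihood F test, Benjamini-Hochberg over 15250 genes), in place of the DESeq of the authors. The standard error of a log2 fold change was obtained from F, and its 95% interval from the t distribution of the fit. Library totals were 9738291 to 17742643 counts. On simulated data for this comparison (15250 genes, 200 changed 2-fold), edgeR recovered 200 with 4 false calls, and DESeq2 1.42.0 recovered 197 with 10. The simulation used the same dispersion for every gene and left out low-count genes from the changed set. Recovery of changes below 2-fold, such as those of the members, was not tested. Sequences and lists were handled with Python 3.11.15 (pandas 2.3.3, scipy 1.17.1, numpy 2.4.6), and figures with matplotlib 3.10.9. The members and lists were chosen with earlier results of these data known. Values in every library were given for each member with an adjusted p under 0.05, for the member with the highest mean CPM in each role, and for SLBP and NPAT. Of other lists, genes past the threshold (at most 8 per list) and CDKN1A, CDKN1B and CDKN2A were named. The values of 1 gene past the threshold are not reported here. Other settings were DESeq2, scaling by RLE or by totals alone, a filter of 1 count in all or of 10 counts per library, a replicate block, thinning to the smallest library, a threshold of 0.01, each library left out, and, chosen after the data were seen, rows of the type mRNA only.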

Additional observations from a re-analysis of the deposited data

How the results depend on the processing

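The numbers 1 to 3 are shared by both groups. The deviations of same-numbered libraries from their group means correlated at 0.162, 0.19 and 0.0556 over genes. These values were low, but every library correlated best with its own number. For silenced 3 the margin was slight, since its correlation with control 1 was 0.055. Whether the numbers mark a pairing or a shared batch was not tested. With the number as a block, 10 members passed in place of 8, the 8 included, with NPAT (edgeR adjusted p = 0.0332) and TYMS added. Of the G1/S drivers and brakes, 9 passed in place of 4 (3 higher and 6 lower). The share of all genes that passed rose as well, to 22.6% with the block and 23.3% among rows of the type mRNA, beside 17.0% without either. All 8 also passed with RLE size factors, library totals only, DESeq2, either filter, thinned counts and rows of the type mRNA only. NPAT passed in the thinned counts (0.0331) and among rows of the type mRNA (0.0481), and TYMS with DESeq2, with every gene with a count and among rows of the type mRNA. At an adjusted p under 0.01, 2 members, 3 other replication factors, 0 genes of the histone mRNA list and 2 of the mitosis list passed. With every gene with a count, 7 of the G1/S drivers and brakes passed (2 higher and 5 lower), and with library totals only, 2 of the mitosis list. With 1 library left out, so that fewer samples were tested, 2 to 5 members passed (2 without silenced 1 and 3 without control 2). In the other lists these were 4 to 7 other replication factors, 0 to 3 genes of the histone mRNA list and 2 to 4 of the mitosis list. Of all genes, 7.87% to 12.7% passed in these fits. The members' median stayed between 0.00 and 0.08, and no direction reversed among the members named with a value in every library. FAM83H-AS1 was below its control level in every setting that kept it (-1.86 to -1.64). The 95% interval of a member reached 0.18 to either side of its log2 fold change at the median. Smaller changes could thus not be told from 0 at this depth and number of libraries. This interval is not adjusted for the number of genes, and the adjusted p asked for more. The smallest change that passed was 0.25, for TK1, and NPAT at 0.27 did not pass.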
